A study of Mus musculus with 18 samples.

Results

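The genes of interest were 10 that encode proteins of the M-band and the Z-disc of the sarcomere, out of 35150 genes measured. They were chosen by name, with earlier results of these data known, as were all lists used below. The 10 comprised the myomesins Myom1, Myom2, and Myom3, the alpha-actinins Actn2 and Actn3, the myozenins Myoz1, Myoz2, and Myoz3, and the Z-disc proteins Ldb3 and Csrp3. The level of a gene was the sum of the TPM of its Ensembl transcripts, where TPM is the abundance of a transcript scaled for its length and for the total of the library, and the transcript forms were kept apart by their annotated biotype. RNA was taken from biopsies of skin and muscle of the mouse rostral whisker pad, where small muscles move the whiskers. On the right the facial nerve was cut at its buccal and superior marginal branches, and on the left the skin was only opened and closed again as a sham control. Both sides of 9 mice were sampled, with 3 mice at each of days 1, 3, and 7 after surgery, and these mice were not the ones used for whisker movements. Every lesion was on the right, so lesion and side of the face cannot be told apart, and the strain of these mice was not given in the sources used here.

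The sarcomere is the contractile unit of striated muscle. Z-discs bound it at both ends, where alpha-actinins crosslink the actin filaments and hold titin, and the M-band lies at its center, where myomesins crosslink the myosin filaments. Each family has members that differ between fiber types: ACTN3 is the alpha-actinin of fast fibers beside the general muscle form ACTN2, MYOZ1 and MYOZ3 are myozenins of fast fibers and MYOZ2 that of slow fibers and heart. Myozenins, also called calsarcins, bind alpha-actinin and the phosphatase calcineurin.

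Muscle RNA made up a varying share of the biopsies. The summed TPM of 10 muscle content markers was 5990 on the sham side and 9047 on the denervated side of day 1 replicate 1, against 17460 to 34590 in the other 16 samples, so the day 1 values were also computed without this mouse. At day 3 the markers summed to 21030 to 22090 on the sham side and 20090 to 23300 on the denervated side, and at day 7 to 30320 to 34590 and 26770 to 30130, without overlap. The summed TPM of 10 macrophage and leukocyte markers did not overlap at day 7, with 184.4 to 519.8 on the sham side and 1630 to 3258 on the denervated side. At day 7 the sums of 8 endothelial markers were also separate, at 280.7 to 307.2 and 221.2 to 265.5, as were those of 6 smooth muscle markers, at 686.4 to 702.7 and 722.5 to 785.8. Of these 6 smooth muscle markers 3 were above 0 and 3 below 0 in log2 difference, with a median of -0.25. One of them, Des, is also a Z-disc gene of skeletal muscle, at 408.1 ± 49.0 TPM on the sham and 544.4 ± 37.3 TPM on the denervated side (SD, n = 3). Of 10 fibroblast markers 9 were above 0 in log2 difference at day 7, and of 10 keratinocyte markers 10 were below 0 at day 3, none of which passed. The blood marker Hbb-bs reached 94570 TPM in day 7 denervated replicate 1, against 1180 to 27030 in the other samples. Myog, a transcription factor that is induced in denervated muscle, was at 0.49 to 7.14 TPM on the sham side and at 16.6 to 199.8 TPM on the denervated side with no overlap. Myh7, the myosin of slow fibers, stayed at or below 0.501 TPM in all 18 samples. In bulk tissue, fewer muscle fibers and less RNA per fiber cannot be told apart.

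Several forms of these genes are named at the outset because they carry much of the measured RNA. The table held 40 transcripts of the 10 genes, of which 22 were annotated as protein coding, 10 as retained intron, 7 as processed transcript, and 1 as a target of nonsense-mediated decay. In 3 genes a short form without a coding annotation held the larger share of the TPM summed over all samples. It was the retained-intron form Myom3-203 in Myom3 (87.0%), the retained-intron form Actn3-202 in Actn3 (68.2%), and the processed transcript Actn2-205 in Actn2 (63.5%). In Myoz1 the coding form Myoz1-201 held 90.2%, the retained-intron form Myoz1-203 8.07%, and the processed transcript Myoz1-204 1.24%. Coding forms led in the other genes, with Csrp3-201 at 99.0%, Myoz2-201 at 92.5%, Ldb3-207 at 80.1%, Myom2-201 at 64.7%, and Myom1-203 at 62.5%, and Myoz3 had 1 form in the table, the coding Myoz3-201. Of the minor forms at 1% or more, Myom1-202 (36.8%), Actn3-201 (31.8%), Actn2-201 (24.5%), Ldb3-205 (16.6%), Actn2-203 (12%), Myom3-201 (11.2%), and Ldb3-201 (2.70%) are coding. Those without a coding annotation were the processed transcripts Myom2-205 (33.9%), Myoz2-205 (2.33%), and Myoz2-204 (2.01%) and the retained-intron form Myom3-202 (1.81%), and Myoz2-203 (2.54%) is a target of nonsense-mediated decay.

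The 4 short forms Myom3-203, Actn3-202, Actn2-205, and Myoz1-203 begin within an intron of the coding form and run on into its exons. The sequences below are their first bases, 5′ to 3′, from GENCODE M21 on GRCm38, and are shown because those bases are what separates a short form from the coding one. Capitals mark the bases outside the exons of the coding form, and lower case marks the first 30 bases of the exons that follow.
Myoz1-203 (chr14:20650625-20650718, minus strand, start in intron 4 of Myoz1-201): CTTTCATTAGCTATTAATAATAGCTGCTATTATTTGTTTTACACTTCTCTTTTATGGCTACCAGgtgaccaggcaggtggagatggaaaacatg
Actn3-202 (chr19:4863515-4863558, minus strand, start in intron 15 of Actn3-201): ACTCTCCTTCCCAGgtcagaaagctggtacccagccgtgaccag
Myom3-203 (chr4:135798190-135798324, plus strand, start in intron 24 of Myom3-201): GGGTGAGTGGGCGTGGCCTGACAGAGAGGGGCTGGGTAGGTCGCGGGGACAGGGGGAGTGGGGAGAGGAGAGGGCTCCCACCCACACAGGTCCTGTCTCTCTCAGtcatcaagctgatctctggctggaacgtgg
Actn2-205 (chr13:12272735-12274096, minus strand, start in intron 18 of Actn2-201, spliced to the exon that follows): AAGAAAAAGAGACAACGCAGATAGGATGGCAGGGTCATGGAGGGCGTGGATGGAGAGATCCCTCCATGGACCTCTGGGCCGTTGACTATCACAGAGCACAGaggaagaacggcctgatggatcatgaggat
Of the 982 bases of Actn3-202, 14 lay outside the exons of Actn3-201, and 98.5% of its 31-base words also occurred in Actn3-201. The share was 96.0% for Myom3-203, 83.7% for Myoz1-203, and 78.8% for Actn2-205. A read from shared words is divided between the forms by the estimate of Kallisto, and single forms are given with this limit. The sum over forms is the measure of a gene below. As TPM is scaled for length, a read given to a short form adds more to this sum than one given to a long form. The sum of any gene whose forms share words therefore also depends on the division, and not only those of Myom3, Actn3, and Actn2. Short forms in other genes were Ldb3-207 (1499 bases, 80.1% of Ldb3), Myom2-205 (744 bases, 33.9% of Myom2), and Myoz1-203 (405 bases, 8.07% of Myoz1). At day 7 the log2 difference between the sides was 2.15 for Actn3-201 and 2.04 for Myom3-201, against 1.64 and 1.54 for the gene sums. Between genes the sharing was small, with at most 1.70% of the 31-base words of any of the 10 genes found in another gene. Myom1 shares 207 exon bases with Myl12a on the opposite strand, and the kit is not stated to mark strand.

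On the sham side, over all days, the order of the median gene TPM was Myoz1 (442.7), Actn2 (401.6), Ldb3 (258.7), Csrp3 (207.0), Actn3 (140.8), Myom1 (124.9), Myom2 (77.6), Myom3 (46.2), Myoz2 (30.3), and Myoz3 (12.7), with 9 samples each. The ranges of every pair of neighbors in this order overlapped. On the denervated side Actn3 had the highest median, at 597.7 TPM with a range of 36.3 to 1019, and Myoz1 stood below Csrp3, Ldb3, and Actn2, at 228.2 TPM with a range of 129.1 to 316.3. Myom3, at 184.3 TPM, stood above Myom1 at 72.1 TPM and Myom2 at 62.8 TPM, with ranges that overlapped.

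**Figure D1:**
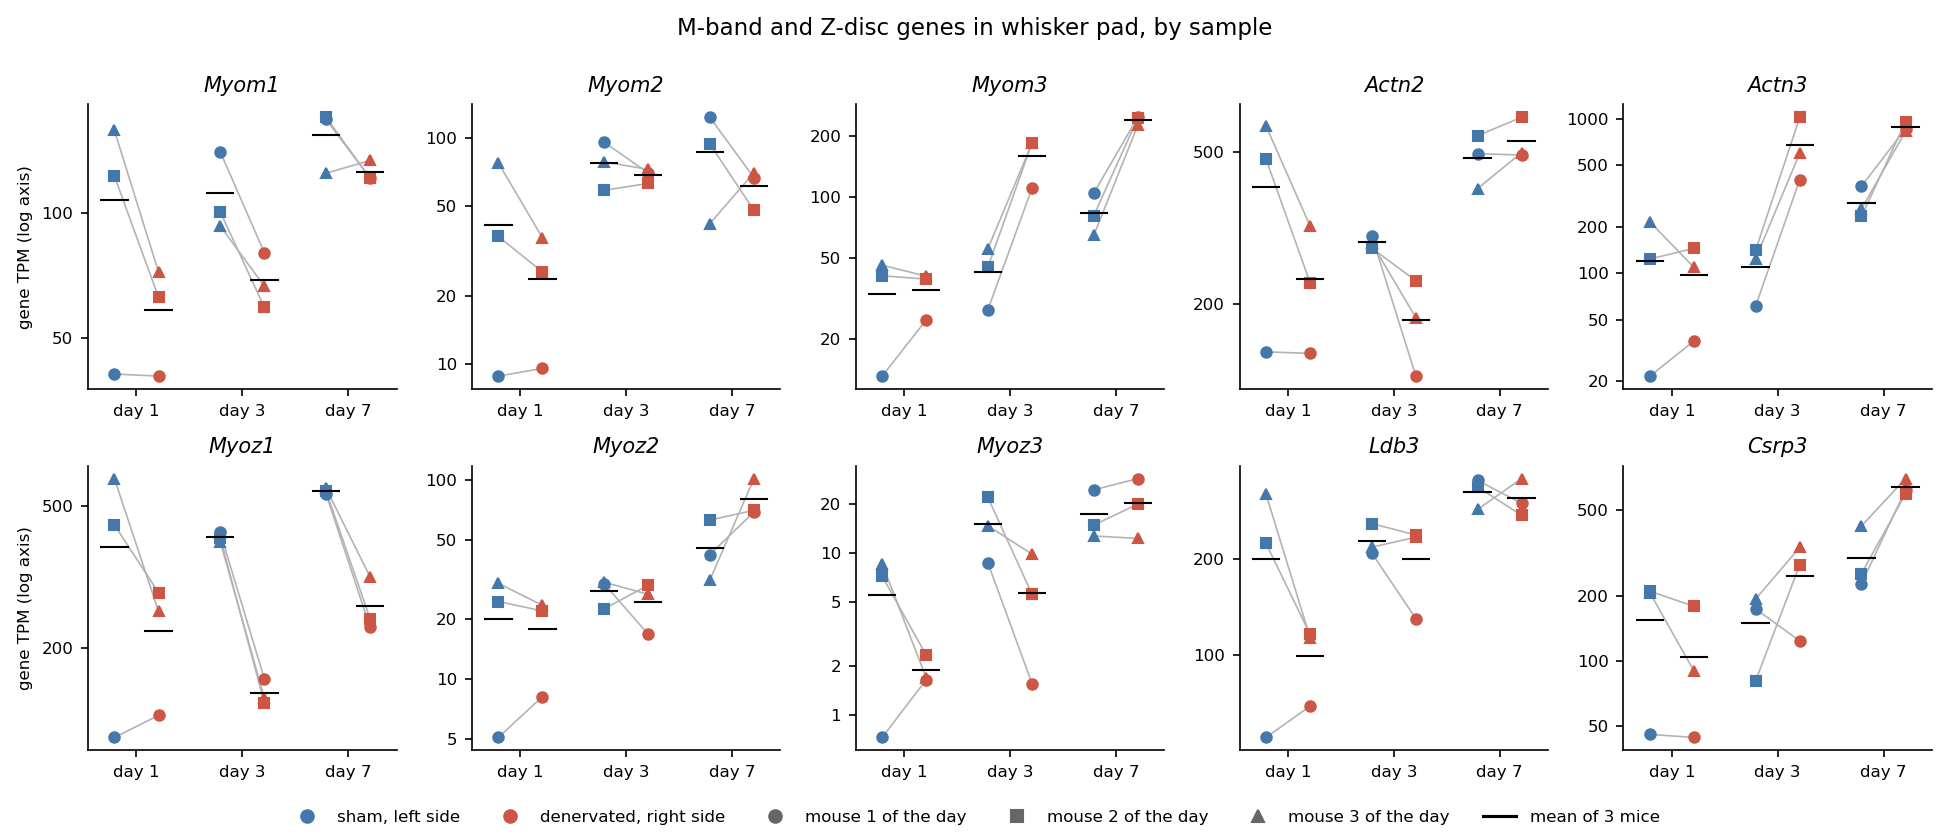
Gene TPM (log axis) of the 10 genes in all 18 samples by day, with sham in blue, denervated in red, a grey line joining both sides of a mouse, marker shapes for the mouse, and a black bar for the mean of 3 mice. Actn3 and Myom3 lie higher on the denervated side at days 3 and 7 without overlap, Myoz1 lies lower, and day 1 replicate 1 (circles) is low for all 10 genes on the sham side.

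At day 1 no difference between the sides passed the test in the 10 genes. By limma with Benjamini-Hochberg adjustment 0 of 10 passed the test, and of 14776 genes tested 0% passed, with 634 genes and none of the 10 at an unadjusted p under 0.05. In the fit that blocked on the mouse, 913 genes and 2 of the 10 had such a p, and again none passed after adjustment. The median log2 difference of the 10 genes was -0.53, against 0.007 over all genes tested. Other muscle lists were below 0 in median too. It was -0.48 for other M-band genes (5 of 5 below 0) and -0.11 for other Z-disc genes (17 of 29). For fast fiber genes it was -0.14 (11 of 12), for muscle content markers -0.17 (8 of 10), and for slow fiber genes -0.02 (4 of 7). In none of the 10 genes were the groups separate, where 5.61% of all genes lay higher and 3.95% lower without overlap. Myom1, Actn2, and Csrp3 were lower on the denervated side in 3 of 3 mice, by mean log2 differences of -0.71 ± 0.60, -0.66 ± 0.57, and -0.49 ± 0.62 (SD, n = 3). In day 1 replicate 1 these differences were -0.017, -0.014, and -0.047, close to 0, and 12.1% of all genes were lower in 3 of 3 mice. Without day 1 replicate 1 none of the 10 genes passed, the median moved to -0.87, and 5 of the 10 had an unadjusted p under 0.05, against 0 with it. Of all 14970 genes tested without this mouse, 2256 had such a p, against 634 with it. Without replicate 3 the median of the 10 genes was -0.21.

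At day 3, Actn3 and Myom3 were higher and Myoz1 was lower on the denervated side, 3 of the 10 genes, where 1.45% of the 14943 genes tested passed (1.01% higher and 0.442% lower). The same 3 genes passed in the same direction at day 7, where 1.53% of 15081 genes passed (1.01% higher and 0.511% lower). As the 10 genes were chosen with earlier results of these data known, these counts are a description and not independent of that choice. Blocking on the mouse, 1.45% of genes passed at day 3 (0.924% higher) and 2.17% at day 7 (1.43% higher), and Csrp3 joined the 3 genes at day 7. The median log2 difference of the 10 genes was -0.22 at day 3 and 0.18 at day 7, against -0.01 and 0.04 over all genes tested. The median at day 3 was -0.007 without replicate 1 and -0.40 without replicate 2, and that at day 7 was 0.40 after rescaling to the muscle content markers and 0.41 from protein-coding transcripts alone. At day 3 the groups were separate in 5 genes, 2 higher and 3 lower, and at day 7 also in 5, 4 higher and 1 lower. The background of separate groups was 11.7% higher and 9.82% lower at day 3, and 10.6% and 7.06% at day 7.

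**Figure D2:**
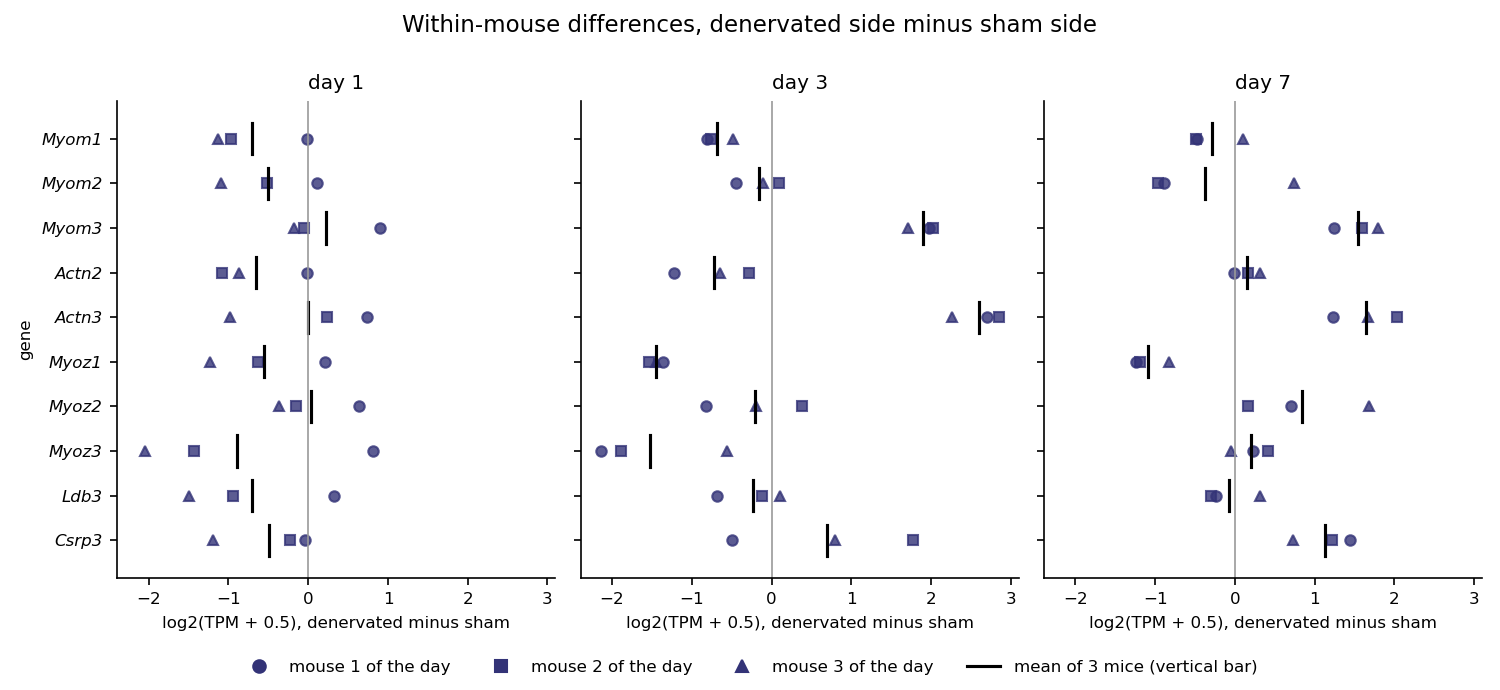
Difference between the sides of a mouse in log2(TPM + 0.5), denervated minus sham, for each gene and mouse at days 1, 3, and 7, where marker shapes stand for mice and the vertical bar for the mean of 3. At day 3 the differences of Actn3 lie between 2.26 and 2.85 and those of Myoz1 between -1.54 and -1.36, whereas at day 1 those of Actn3 run from -0.98 to 0.74.

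Among the M-band genes, Myom3 rose. The gene lies on GRCm38 chr4:135759715-135815564, and its product is a myomesin of skeletal muscle. At day 3 it was at 27.9, 45.2, and 55.7 TPM on the sham side of the 3 mice and at 110.8, 185.2, and 184.3 TPM on the denervated side. Each denervated sample lay above every sham sample, and the difference was 1.90 ± 0.31 on the log2 scale (SE), 3.74-fold, with adjusted p = 0.0452 by limma. At day 7 it was at 104.5, 81.0, and 64.7 TPM against 247.9, 245.3, and 226.5 TPM. The groups were again separate, and the difference was 1.54 ± 0.18, 2.92-fold, with adjusted p = 0.0115 by limma. At day 1 the sham values of 13.1, 40.9, and 46.2 TPM and the denervated values of 24.8, 39.4, and 40.7 TPM overlapped, with higher values in 1 of 3 mice.

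Myom1, the general myomesin of striated muscle, had lower values on the denervated side at day 3. They were 80.3, 59.2, and 66.6 TPM against 140.8, 100.8, and 93.1 TPM on the sham side, without overlap. The log2 difference of -0.68 ± 0.19 did not pass by limma, with adjusted p = 0.172, or 0.064 when blocked on the mouse. At day 7 the groups overlapped, at 121.5 to 134.1 TPM on the denervated side and 124.9 to 170.6 TPM on the sham side, with a log2 difference of -0.29 ± 0.15. Over all 9 mice Myom1 differed by -0.56 ± 0.21, which passed only with the mouse as a block (adjusted p = 0.0348, against 0.187 without it, by limma). Myom2, the myomesin of fast fibers and heart, overlapped at every day. Its log2 differences were -0.50 ± 0.85, -0.15 ± 0.18, and -0.37 ± 0.39 at days 1, 3, and 7, and at day 7 it was lower in 2 mice and higher in 1.

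Of the alpha-actinins, Actn3 (GRCm38 chr19:4861216-4877909) rose and Actn2 (chr13:12269426-12340760) did not pass the test. At day 3 Actn3 was at 61.2, 140.8, and 124.1 TPM on the sham side and at 401.7, 1019, and 597.7 TPM on the denervated side. The lowest denervated value lay above the highest sham value, and the log2 difference was 2.61 ± 0.43, 6.09-fold, with adjusted p = 0.0475 by limma. At day 7 it was at 364.6, 232.4, and 259.9 TPM against 858.2, 952.2, and 826.0 TPM. The groups did not overlap, and the log2 difference was 1.64 ± 0.18, 3.13-fold, with adjusted p = 0.00997 by limma. At day 1 the groups overlapped, at 21.5 to 214.4 TPM on the sham side and 36.3 to 144.6 TPM on the denervated side. Actn2 was at 128.8, 229.6, and 183.6 TPM on the denervated side at day 3 and at 301.8, 279.7, and 288.0 TPM on the sham side. These groups were separate too, but the log2 difference of -0.72 ± 0.21 did not pass by limma (adjusted p = 0.186). At day 7 Actn2 was at 492.2 to 618.7 TPM against 401.6 to 553.4 TPM, which overlapped.

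Of the myozenins, Myoz1 (GRCm38 chr14:20649107-20656540) fell. Its within-mouse differences had the narrowest spread of the 10 genes at day 3, and it was at 421.6, 407.6, and 397.3 TPM on the sham side and 163.8, 140.2, and 144.7 TPM on the denervated side. The groups were far apart, with a log2 difference of -1.45 ± 0.10, 2.73-fold lower, and adjusted p = 0.00225 by limma. At day 7 the sham values were 541.7, 551.6, and 561.4 TPM and the denervated values 228.2, 241.2, and 316.3 TPM. They did not overlap either, and Myoz1 was 2.13-fold lower, a log2 difference of -1.09 ± 0.15 with adjusted p = 0.0187 by limma. At day 1 Myoz1 was lower in 2 mice and higher in day 1 replicate 1, from 111.9 to 597.3 TPM on the sham side and from 129.1 to 285.7 TPM on the denervated side. Without that mouse the groups of 2 did not overlap in Myoz1 or in 8 of the other genes, all but Actn3, and were lower on the denervated side in each of these, where 24.9% of all genes were lower without overlap. The sums of the muscle content markers were also lower there without overlap, at 18570 and 17460 on the denervated and 21010 and 28730 on the sham side.

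Myoz2 and Myoz3 were the least abundant of the 10 genes. Myoz2 was at 69.2, 70.5, and 101.7 TPM on the denervated side at day 7 and at 42.2, 63.0, and 31.4 TPM on the sham side. It was higher in 3 of 3 mice and the groups were separate, but the log2 difference of 0.85 ± 0.28 did not pass by limma (adjusted p = 0.276). At day 3 its differences had both signs, with a mean of -0.21 ± 0.61 (SD, n = 3). Myoz3 was at 1.57, 5.55, and 9.80 TPM on the denervated side at day 3 and at 8.64, 21.9, and 14.6 TPM on the sham side, lower in 3 of 3 mice but with overlap. Its log2 difference of -1.53 ± 0.62 did not pass by limma (adjusted p = 0.327), and at day 7 the difference was 0.20 ± 0.35.

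Csrp3 (GRCm38 chr7:48830398-48848033) and Ldb3 (chr14:34526603-34588682) encode other proteins of the Z-disc. CSRP3, the muscle LIM protein, binds alpha-actinin and takes part in mechanical sensing. At day 7 Csrp3 was at 228.2, 254.2, and 421.4 TPM on the sham side and at 619.5, 593.3, and 698.0 TPM on the denervated side. Every denervated sample lay above every sham sample, and the log2 difference was 1.13 ± 0.24, 2.19-fold. It did not pass without the block (adjusted p = 0.0905) and passed with the mouse as a block (adjusted p = 0.032), by limma. At day 3 Csrp3 was higher in 2 mice and lower in replicate 1, at 124.0, 279.2, and 335.9 TPM on the denervated side and 174.3, 81.3, and 193.9 TPM on the sham side, and the groups overlapped. LDB3, also called ZASP or Cypher, links alpha-actinin to signaling proteins through a PDZ domain. Ldb3 overlapped at every day, with log2 differences of -0.71 ± 0.65, -0.23 ± 0.25, and -0.07 ± 0.15 at days 1, 3, and 7 and adjusted p between 0.744 and 0.999 by limma.

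The calls at days 3 and 7 rested on 3 mice each. At day 3 without replicate 2, the adjusted p by limma was 0.252 for Actn3, 0.451 for Myom3, and 0.123 for Myoz1, and without replicate 3 it was 0.303, 0.248, and 0.101. Without replicate 1 Myom3 (0.023) and Myoz1 (0.0203) still passed and Actn3 (0.0551) did not. At day 7 none of the 3 passed without replicate 1 or without replicate 2, with adjusted p of 0.106 to 0.342 by limma. Without replicate 3 of that day Myom3 (0.0454), Myoz1 (0.0362), and Csrp3 (0.0361) passed. Of all genes 0.881%, 0.0467%, and 0% passed at day 3 without replicates 1, 2, and 3. At day 7 it was 0.0065%, 0.0324%, and 0.84%. These fits were not blocked on the mouse. The directions of the 3 genes were the same each time, with log2 differences of 2.48 to 2.78 for Actn3, 1.85 to 2.00 for Myom3, and -1.50 to -1.41 for Myoz1 at day 3. At day 7 the ranges were 1.45 to 1.85, 1.42 to 1.70, and -1.22 to -1.01. When the values were rescaled to the muscle content markers, all 3 genes passed at both days, with adjusted p up to 0.0199 at day 3 and 0.0308 at day 7 by limma. Csrp3 passed too at day 7, and of all genes 1.58% passed at day 3 and 2.39% at day 7. This rescaling moved the median of all genes at day 7 to 0.25 and the genes called there from 153 higher and 77 lower to 281 and 62. In a single fit of all 18 samples 1 of the 10 genes passed at day 3 and 0 at day 7, with Myom3 at adjusted p = 0.0191 and 0.076 by limma. Of all genes 2.12% and 1.44% passed in that fit. Blocked on the mouse, it called all 3 genes at both days, where 3.42% and 2.47% of all genes passed. From the protein-coding transcripts alone, 1 of the 10 genes passed at day 3, Myoz1, with Actn3 at adjusted p = 0.0551 and Myom3 at 0.0812, where 1.67% of all genes passed. The part of leukocyte, endothelial, smooth muscle, fibroblast, and blood RNA in the day 7 values, and of keratinocyte RNA in the day 3 values, was not tested.

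Over all days, 2 of the 10 genes passed, where 3.1% of 14757 genes passed (1.92% higher and 1.18% lower). Myom3 was higher by 1.22 ± 0.28 on the log2 scale (adjusted p = 0.0215) and Myoz1 lower by 1.03 ± 0.26 (adjusted p = 0.0365, by limma). With the block 3 of the 10 passed, the third being Myom1, where 3.5% of all genes passed. Actn3, at 1.42 ± 0.45, did not pass over all days (adjusted p = 0.111 by limma), but did without day 1 replicate 1 (0.0271) or without day 1 replicate 3 (0.0312). Without these mice 4.68% and 3.72% of all genes passed. When any 1 mouse of day 3 or 7 was left out, Myom3 (adjusted p of 0.0587 to 0.0908) and Myoz1 (0.0716 to 0.131) did not pass over all days by limma, where 1.54% to 2.46% of all genes passed. Without day 1 replicate 2 the adjusted p of Myoz1 was 0.05, at the threshold.

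Whether the difference between the sides changed with the day was tested as an interaction in a fit of all 18 samples. Between days 1 and 3, 0 of the 10 genes passed without the block, where 0.122% of 14757 genes passed, and 2 passed when blocked on the mouse, where 0.461% did. These were Actn3, whose difference was larger by 2.61 ± 0.40 at day 3 (adjusted p = 0.0414, against 0.406 without the block), and Myom3, larger by 1.68 ± 0.28 (adjusted p = 0.0486, against 0.333), by limma. Without day 1 replicate 1, both passed without the block (adjusted p = 0.0318 for Actn3 and 0.0351 for Myom3, by limma), where 1% of genes did. Between days 1 and 7 none of the 10 passed, where 0.163% of genes did (0.142% blocked on the mouse, 0.0678% higher). Between days 3 and 7 none of 14757 genes passed by limma, with 1013 at an unadjusted p under 0.05, and with the block 0.00678% passed and none of the 10.

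Ratios of genes of the same family within a library do not depend on how a library was scaled. The fold of the ratio of Actn3 to Actn2, denervated over sham in the same mouse, was 7.56 to 15.4 at day 3 and 2.37 to 3.67 at day 7, and 0.932 to 2.48 at day 1. In the libraries themselves this ratio was at most 0.735 in the 9 sham samples and at least 1.54 in the 6 denervated samples of days 3 and 7. The ratio of Myom3 to Myom1 was 1.89 to 1.94 times as high on the denervated side at day 1, 4.62 to 6.97 times at day 3, and 3.26 to 4.25 times at day 7. The ratio of Myoz2 to Myoz1 was higher in 9 of 9 mice, by 1.39 to 1.83 times at day 1, 1.44 to 3.82 times at day 3, and 2.56 to 5.75 times at day 7. These ratios are a description without a test, and the pairs were not among the planned results. Each pair holds Actn3, Myom3, or Myoz1, which passed at days 3 and 7, and no share over other pairs of genes was computed. The ratios also carry the limit of the division of reads between forms.

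**Figure D3:**
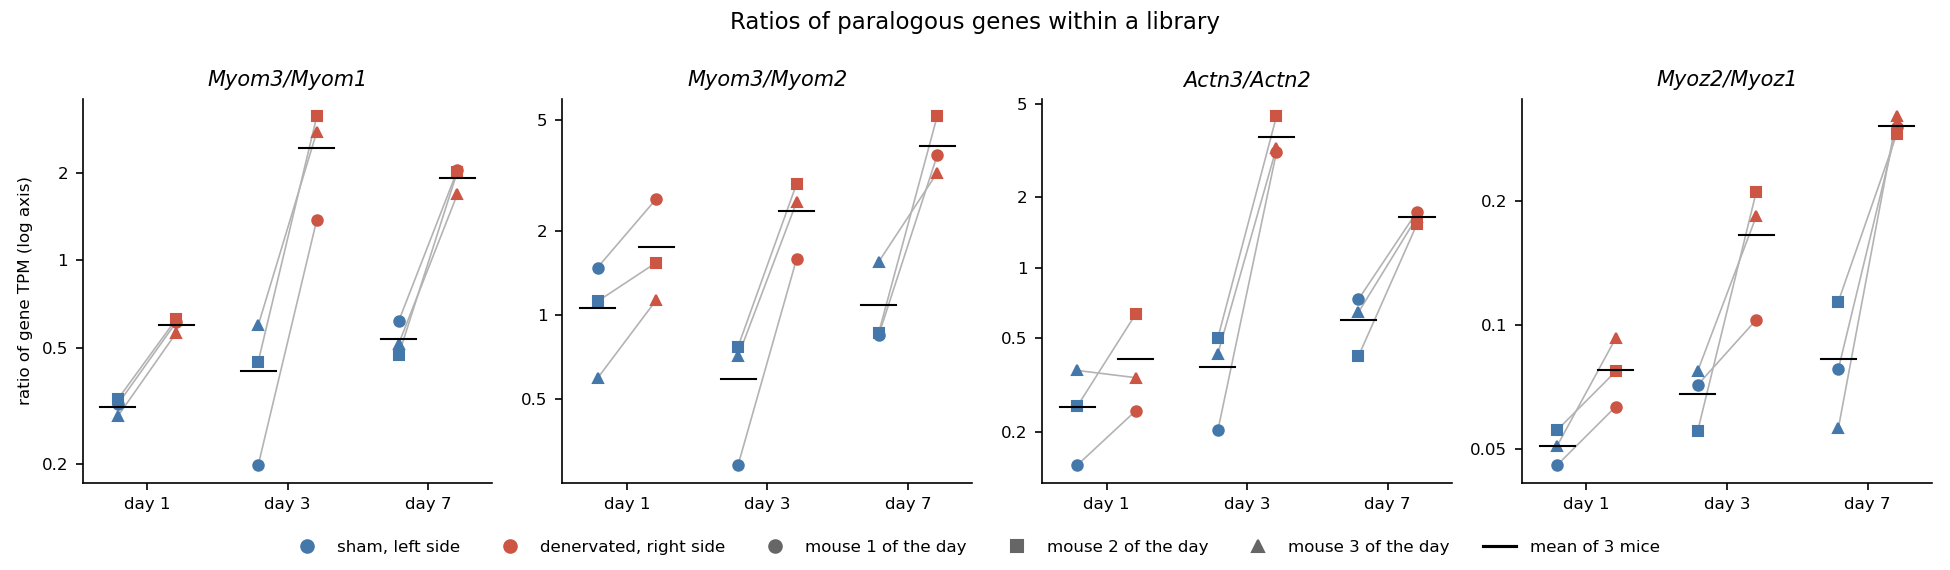
Ratios of gene TPM within a library (log axis) for 4 pairs of genes of the same family by day, with sham in blue, denervated in red, a grey line joining both sides of a mouse, and a black bar for the mean of 3 mice. The ratio of Actn3 to Actn2 lies above 1 in the denervated samples of days 3 and 7 only, and the lines of the other 3 ratios rise in 9 of 9 mice.

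The forms of a gene were tested one by one. Of the forms tested, 17 of 19 at day 1, 20 of 23 at day 3, and 23 of 29 at day 7 had a log2 difference of the same sign as the gene that holds them, as a description. As the gene is the sum of its forms, a form that holds most of it largely fixes this sign. No share over the forms of all genes was computed. At day 3, 2 of the 23 transcripts of the 10 genes that were tested passed, Myoz1-201 and Myoz1-203, where 0.299% of 32794 transcripts passed by limma. At day 7 it was 2 of 29, Myom3-203 and Myoz1-203, where 0.385% of 33805 passed. Blocked on the mouse, no transcript passed at day 1, 3, or 7 (1689, 3945, and 3997 at an unadjusted p under 0.05), and none passed at day 1 without it (1338). When any 1 mouse of day 3 or 7 was left out, no transcript passed at that day. Over all days Myoz1-203 (log2 difference -2.17 ± 0.34) and Myoz1-204 (-1.70 ± 0.26) passed, both with adjusted p = 0.00367, where 0.912% of 31694 transcripts passed. With the block 4 passed, where 0.716% did, namely Myoz1-201, Myoz1-203, Myoz1-204, and Myom1-203, with adjusted p of 0.0244 to 0.0393 by limma.

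The retained-intron form Myoz1-203 was at 27.6, 37.7, and 33.3 TPM on the sham side at day 3 and at 6.36, 4.59, and 8.73 TPM on the denervated side. The groups were separate, with a log2 difference of -2.27 ± 0.24 and adjusted p = 0.0355 by limma (0.129 with the block). At day 1 it was at 11.8, 50.2, and 52.1 TPM against 3.21, 6.24, and 1.37 TPM, also separate, and did not pass (-3.15 ± 0.71, adjusted p = 0.894 by limma). Of the Myoz1 TPM it made up 10.5%, 11.3%, and 8.73% on the sham side at day 1 and 2.49%, 2.19%, and 0.542% on the denervated side. At day 3 the shares were 6.54%, 9.24%, and 8.39% against 3.88%, 3.27%, and 6.03%, and at day 7 10.1%, 10.1%, and 9.10% against 10.4%, 12%, and 6.90%. The shares of the sides were thus separate at days 1 and 3 and overlapped at day 7.

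A test of the share itself, as the log2 ratio of a form to the rest of its gene, called none of the forms of the 10 genes. Over all days 0 of 19 forms passed, where 0.0164% of 24405 transcripts did (0.0082% blocked on the mouse), and Myoz1-203 had a log2 difference of -1.21 ± 0.36 with adjusted p = 0.655 by limma. Its difference was -2.72 ± 0.54 at day 1 (adjusted p = 0.899), -0.88 ± 0.33 at day 3 (0.812), and -0.02 ± 0.33 at day 7 (0.993), and at none of these days did any transcript pass by limma, with 940, 1543, and 1536 at an unadjusted p under 0.05. The tests by day were added after the values had been seen.

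Shares were separate between the sides in forms of Myoz1, Ldb3, and Myom1, all chosen here after their values were seen. Of the forms of the 10 genes tested, shares were separate in 5 of 16 at day 1, where 4.24% of all forms were higher and 4.05% lower without overlap. They were separate in 5 of 21 at day 3, where 5.9% were higher and 6.55% lower, and in 4 of 28 at day 7, where 5.49% were higher and 5.68% lower. As the shares of a gene sum to a whole, a higher share of one form goes with a lower share of another. Ldb3-207, a short coding form of 1499 bases that ends before the last exons of the gene, held 80.1% of the Ldb3 TPM, and Ldb3-205, a long form of 4981 bases, held 16.6%. The share of Ldb3-205 was 12.2%, 9.64%, and 10.4% on the denervated side at day 1 against 14.3%, 14.9%, and 15.1% on the sham side. At day 3 it was 22.3%, 19.7%, and 22.6% against 18.7%, 11.2%, and 12.9%, and at day 7 23.9%, 20.0%, and 20.6% against 13.6%, 12.8%, and 14.8%. The share was lower in 3 of 3 mice at day 1 and higher in 3 of 3 at days 3 and 7, and the log2 ratio to the rest of the gene did not pass at any day by limma (adjusted p between 0.815 and 1.0). The share of Myom1-203 was also separate at day 7, at 42.6%, 60.1%, and 64.4% on the denervated side and 64.9%, 65.3%, and 67.5% on the sham side, and its log2 ratio did not pass by limma (adjusted p = 0.833). Actn2-203, a coding form, was at 173.2, 57.8, and 175.0 TPM on the denervated side at day 7 and at 79.7, 0.839, and 26.8 TPM on the sham side. The groups overlapped, and its log2 difference of 3.08 ± 1.46 did not pass (adjusted p = 0.616 by limma), beside -0.17 ± 0.29 for Actn2-201 and -0.20 ± 0.27 for Actn2-205. In Actn3 and Myom3 the coding and the short forms were higher together. At day 3 the log2 differences were 2.58 ± 0.47 for Actn3-201 and 2.61 ± 0.44 for Actn3-202, and 1.77 ± 0.38 for Myom3-201 and 1.91 ± 0.32 for Myom3-203, none of which passed on its own by limma (adjusted p between 0.105 and 0.185).

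**Figure D4:**
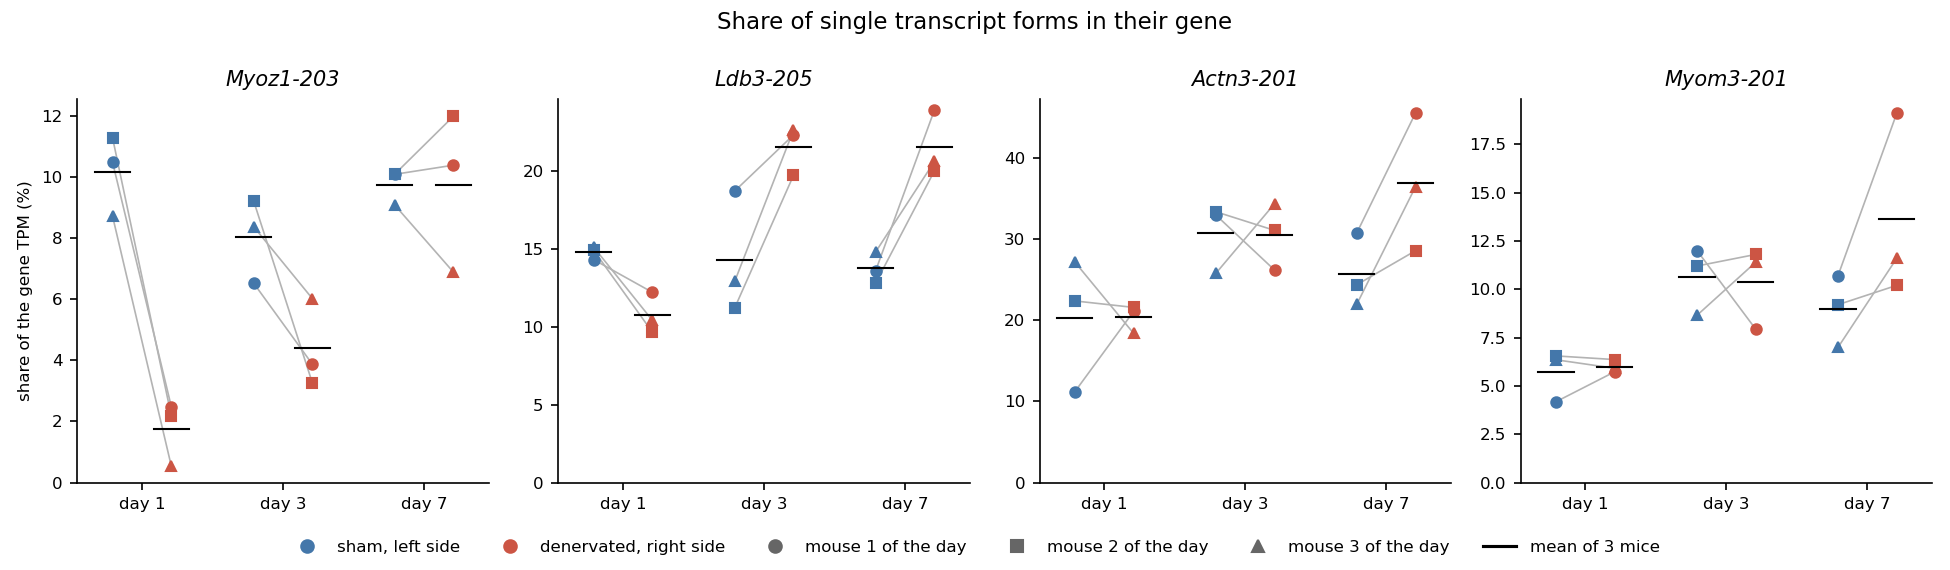
Share of a transcript form in the TPM of its gene (%, axis from 0) for Myoz1-203, Ldb3-205, Actn3-201, and Myom3-201 by day, with sham in blue, denervated in red, a grey line joining both sides of a mouse, and a black bar for the mean of 3 mice. The share of Myoz1-203 lies at 8.73% or more in the sham and at 2.49% or less in the denervated samples of day 1, and that of Ldb3-205 lies lower at day 1 and higher at days 3 and 7 on the denervated side.

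Among 5 other M-band genes and 29 other Z-disc genes, none passed the test at day 1. At day 3, 0 of 5 M-band genes and 1 of 29 Z-disc genes passed, where 1.45% of all genes did, and at day 7 it was 1 of 5 and 6 of 29, where 1.53% did. The median log2 difference of the M-band list was -0.22 at day 3 and -0.01 at day 7, and that of the Z-disc list was -0.003 and 0.19. Ckm, the muscle creatine kinase that is in part bound at the M-band, fell at day 7 from 2347 ± 221.9 to 1080 ± 68.5 TPM (SD, n = 3), a log2 difference of -1.12 ± 0.13 with adjusted p = 0.010 by limma. Ttn, the giant protein titin that spans from Z-disc to M-band, differed by -0.06 ± 0.21 at day 3 and 0.39 ± 0.20 at day 7 and did not pass.

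Of the other Z-disc genes, 4 rose at day 7. Pdlim3, which encodes an alpha-actinin-binding LIM protein, was at 479.8 ± 55.8 TPM on the denervated and 181.5 ± 23.0 TPM on the sham side (log2 difference 1.40 ± 0.15, adjusted p = 0.00797 by limma). Cavin4, a muscle caveolar protein found near Z-discs, differed by 1.49 ± 0.17 (adjusted p = 0.0107), Neb, the nebulin of the thin filament, by 1.14 ± 0.14 (0.0117), and the actin crosslinker Flnc by 1.08 ± 0.11 (0.00776, by limma). At day 3 these 4 genes differed by 0.91 ± 0.30, 0.73 ± 0.40, 0.46 ± 0.16, and 1.14 ± 0.34, and none passed. Fhl3, a LIM protein, fell at both days, from 87.3 ± 2.34 to 26.8 ± 8.59 TPM at day 3 (-1.73 ± 0.23, adjusted p = 0.0212) and from 89.4 ± 9.03 to 30.2 ± 4.22 TPM at day 7 (-1.55 ± 0.15, adjusted p = 0.00656, by limma). At day 1 it was at 98.5 ± 46.4 TPM on the sham and 19.6 ± 3.71 TPM on the denervated side, a log2 difference of -2.17 ± 0.42 that did not pass (adjusted p = 0.681). Synpo2, which binds alpha-actinin and filamin, fell at day 7 by 0.71 ± 0.12 on the log2 scale (adjusted p = 0.0444, and 0.0528 with the block, by limma). In a single fit of all 18 samples Neb, Cavin4, Ckm, Flnc, and Synpo2 did not pass at day 7, with adjusted p of 0.204 to 0.41, or 0.0887 to 0.223 when blocked on the mouse, by limma. When 1 mouse was left out, the directions were the same and most of these calls were lost. Without day 7 replicate 3 Ckm (adjusted p = 0.0392), Pdlim3 (0.0362), and Fhl3 (0.0283) still passed by limma, and the other 4 genes did not. Without day 7 replicate 1 or 2 none of the 7 passed, with adjusted p of 0.118 to 0.492, and Fhl3 at day 3 had adjusted p of 0.0526 to 0.325 without any 1 mouse, by limma. Of all genes 0.0065%, 0.0324%, and 0.84% passed at day 7 without replicates 1, 2, and 3. At day 3 it was 0% to 0.881% without any 1 mouse.

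**Figure D5:**
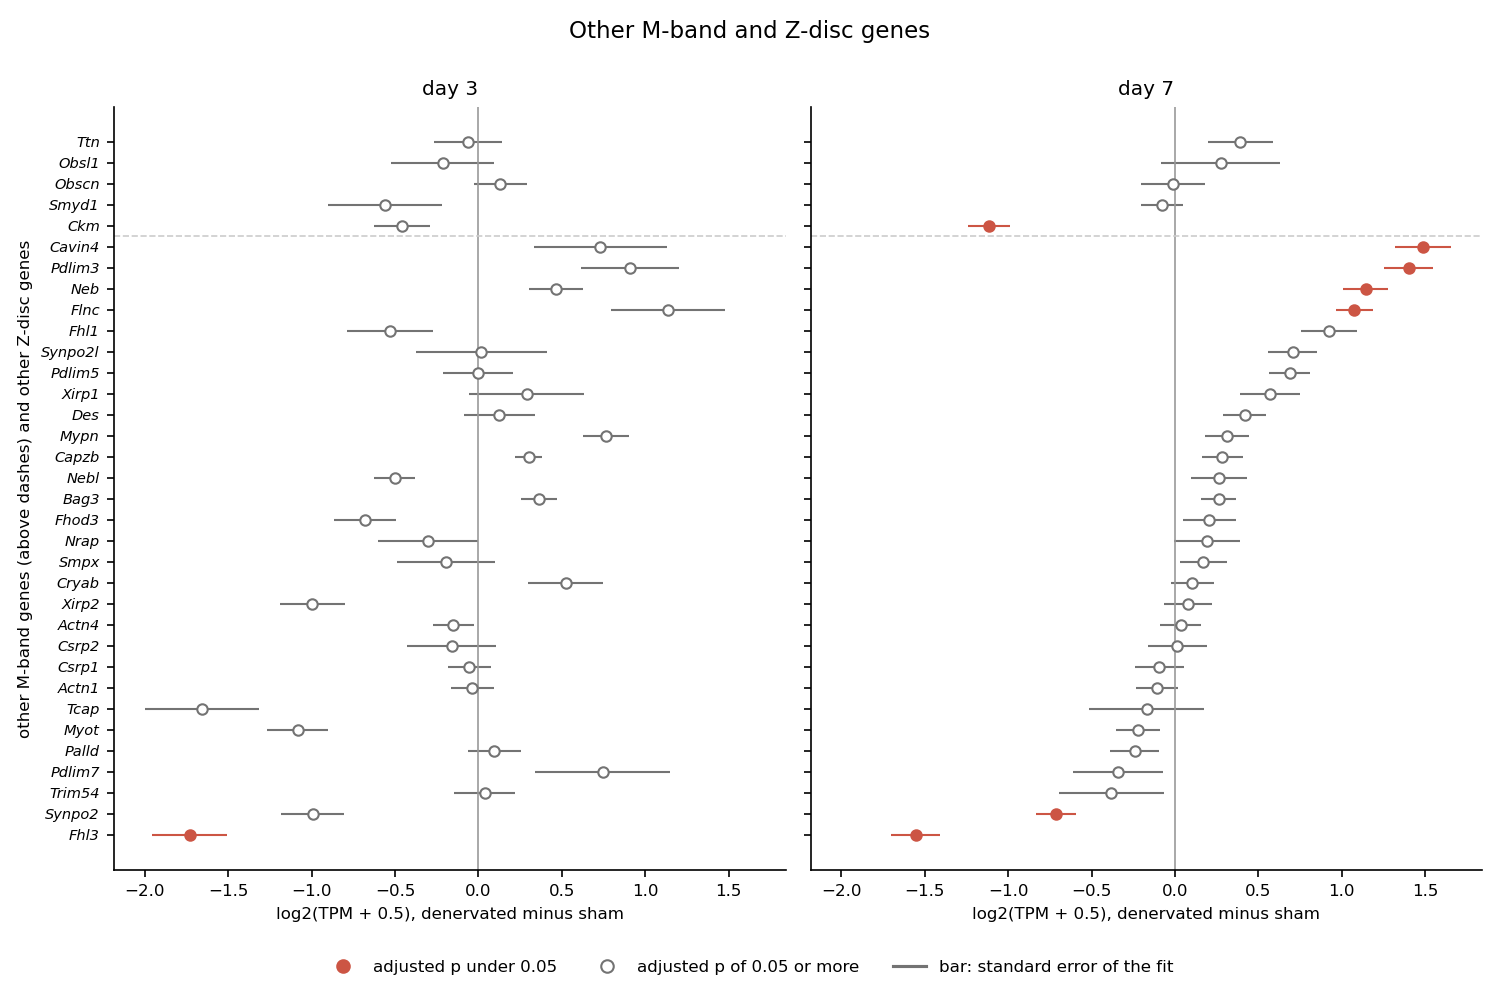
Log2 difference, denervated minus sham on log2(TPM + 0.5), of 5 other M-band and 29 other Z-disc genes at days 3 and 7, where bars are standard errors of the fit and filled red points have an adjusted p under 0.05. At day 3 Fhl3 alone is filled, and at day 7 Ckm, Synpo2, and Fhl3 lie lower and Cavin4, Pdlim3, Neb, and Flnc higher.

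Genes of fast and slow fibers were counted beside these. Mylpf, Tnni2, Tnnc2, Atp2a1, and Casq1 are on both the fast fiber list and the list of muscle content markers, so these lists are not independent. Of 12 fast fiber genes none passed at day 3 or day 7 by limma, where 1.45% and 1.53% of all genes passed, with median log2 differences of 0.01 and -0.19. With the block, where 2.17% of all genes passed at day 7, 2 of them passed there, both lower, the calcium buffer Pvalb (-0.68 ± 0.10, adjusted p = 0.0379) and the fast myosin-binding protein Mybpc2 (-0.79 ± 0.13, adjusted p = 0.0491, by limma). Of the slow fiber genes none of 7 tested passed at day 3, and 1 of 8 did at day 7, with medians of 0.18 and 0.31. It was the slow troponin Tnnt1, higher by 1.71 ± 0.20 (adjusted p = 0.0109 by limma). Over all days, where 3.1% of all genes passed, 1 of 7 did, Casq2, a calsequestrin that binds calcium in slow fibers and heart, which was lower by 0.65 ± 0.13 (adjusted p = 0.0106 by limma). Among the 10 muscle content markers the enolase Eno3 passed, lower by 1.15 ± 0.18 at day 3 (adjusted p = 0.0391, and not with the block) and by 1.10 ± 0.19 at day 7 (adjusted p = 0.0484, by limma). Pvalb, Mybpc2, Tnnt1, Casq2, and Eno3 were named after their values were seen.

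For the 3 genes that passed at days 3 and 7, the genes most like them were found by Pearson's r of the 9 within-mouse log2 differences over 14757 genes, as a description. They were Stbd1 (r = 0.976) and Ddt (0.973) for Actn3, Nkiras1 (0.978) and Neurl1a (0.973) for Myom3, and Gm9507 (0.967) and Ptp4a3 (0.965) for Myoz1. Each of the 9 points comes from both libraries of its own mouse, all genes share these libraries, and day 1 replicate 1 is among them.

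The sequence before the start site is shown for Myom3, which rose at day 7, and for Csrp3. At day 7 Csrp3 passed with the block, after rescaling to the muscle content markers, or without replicate 3, and otherwise did not. Both sequences are from the RefSeq set for GRCm38.p6, each as the 250 bases before the start, 5′ to 3′ on the strand of the gene. That of Myom3 lies before Myom3-201, which held 11.2% of the Myom3 TPM. Myom3-203, which held 87.0%, begins downstream, in intron 24. Actn3 and Myoz1, which passed at days 3 and 7, had no promoter in this set. Capitals mark E-boxes, the letters CANNTG that MYOG and related factors can bind, searched on both strands, which are the same for a palindrome.
Myom3 (chr4:135759465-135759714, plus strand): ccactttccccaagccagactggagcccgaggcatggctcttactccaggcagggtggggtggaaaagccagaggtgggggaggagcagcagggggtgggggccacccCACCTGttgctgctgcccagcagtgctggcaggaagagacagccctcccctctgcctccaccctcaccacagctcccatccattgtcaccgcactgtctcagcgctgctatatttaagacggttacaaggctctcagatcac
Csrp3 (chr7:48848052-48848301, minus strand, before Csrp3-201): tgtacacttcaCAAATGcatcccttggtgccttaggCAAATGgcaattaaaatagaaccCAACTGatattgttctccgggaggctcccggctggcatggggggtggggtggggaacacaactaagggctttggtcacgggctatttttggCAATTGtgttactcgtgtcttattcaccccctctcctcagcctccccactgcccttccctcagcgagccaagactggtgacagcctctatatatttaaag
Myom3 held 1 such match and Csrp3 4, as did the second Csrp3 promoter, before Csrp3-202. Of the other genes with a promoter in the set, Actn2 and Myom1 held 3, Myoz2 held 2, and Ldb3 held 0, and 66.2% of 32851 promoters of the same length held at least 1. A match of these letters is a description of the sequence and not a binding site.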

How the data were processed

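The authors prepared TruSeq RNA v2 libraries from 18 whisker pad biopsies and sequenced them on an Illumina NextSeq. After base calling with bcl2fastq2 (2.17.1.14), ParDRe served for deduplication and Fastp for trimming, and Kallisto 0.43.1 assigned reads to Ensembl GRCm38 cDNA ahead of Sleuth. The deposited signal is TPM per transcript, normalized between samples by the authors, and the sums were 833186 to 1143839. The tests had been planned for plain TPM and were kept. Read depth is not given in the sources used here, and the share of transcripts above 0 was 49.77% to 60.39% per sample.

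Of 113194 transcripts, 98.46% were matched to GENCODE M21 and summed over genes. Columns were assigned to samples by title, at day 7 by the S number together with day and side. Log2(TPM + 0.5) was compared with limma 3.58.1 (R 4.3.3) with a mean-variance trend. A feature was tested if 47% or more of the samples reached 1 TPM. The Benjamini-Hochberg adjustment ran over all features tested, with a threshold of 0.05. Each day was fitted alone, all days together with terms for day and side, and interactions in 1 fit of 18 samples. Same-numbered sides come from 1 mouse, and their deviations from the group means correlated at 0.131 to 0.511. Each main fit was repeated with a block for the mouse, as was the single fit of 18 samples for each day. The other alternatives, such as leaving out a mouse, rescaling, and protein-coding transcripts alone, had no block. Fits without the block were tested on simulated data in which all samples were independent, and the blocked fits were not. Python 3.11.15 was used for the rest.

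The 10 genes and all lists were chosen with earlier results of these data known. Named genes were the 10, up to 4 rises and 4 falls of the other lists, the 2 genes most like each of the 10 that passed, and transcripts with at least 1% of a gene's TPM or a call.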

Additional observations from a re-analysis of the deposited data

Results flagged for a closer look

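The difference between the sides differed between days 1 and 3 in 2 of the 10 genes when the mouse was a block in a limma fit of all 18 samples. For Actn3 the log2 difference was larger by 2.61 at day 3 (adjusted p = 0.0414), and for Myom3 by 1.68 (adjusted p = 0.0486). Without the block the adjusted p was 0.406 and 0.333. The groups of 3 samples were too small for single samples to be examined as outliers.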

How the results depend on the processing

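Alternatives changed the pseudocount, the TPM minimum, the scaling, the trend, the samples in a fit, and the mouse as a block. Of the values of single genes and transcripts, 1222 kept direction and side of the threshold, 100 lost a call, 33 gained one, and 20 reversed. The cause was not tested. Depth was not known, so its limit could not be given.

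With the mouse as a replicate block, the pairing took the transcripts called at day 3 from 98 to 0 and those of the 10 genes from 2 to 0, and at day 7 from 130 to 0 and from 2 to 0. Over all days transcripts of the 10 genes went from 2 to 4. Between days 3 and 1 the genes called went from 18 to 68, with 2 of the 10 instead of 0, and between days 7 and 3 from 0 to 1. Usage went from 4 to 2 transcripts. In the fits of a single day, over all days, and between days, blocking changed the calls of Csrp3 at day 7, Myom1 over all days, and Actn3 and Myom3 between days 3 and 1 and no other of the 10 genes. Blocked in one fit of all 18 samples, the genes called numbered 43, 504, and 364 at days 1, 3, and 7. Without the block that fit called 29 genes at day 1, and of the 10 genes 1 at day 3 and 0 at day 7, against 3 and 3 with it.

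Rescaling to muscle markers gave 26 genes and 17 transcripts at day 1, 167 genes and 179 transcripts over all days with 7 transcripts of the 10 genes, 0 genes between days 3 and 1, and 6 between days 7 and 1. At day 1 it put 2 of the 10 genes higher and 6 lower in all 3 mice, against 0 and 3. Equal sums gave 2 genes at day 1 and at day 7 72 transcripts, 0 of the 10 genes. With TPM above 0, 1 gene passed at day 1, 1 of the 10 and 48 transcripts (1 of theirs) at day 3, and 33 transcripts (0 of theirs) at day 7. Without the trend it was 6 genes at day 1, 1 of the 10 at day 3, and 0 of their transcripts at day 7. Transcripts of the 10 genes at day 7 came to 1 with a pseudocount of 0.1 and 4 with a TPM of at least 5. A pseudocount of 1 gave 1 gene between days 7 and 3. Protein-coding transcripts alone gave 1 of the 10 genes at day 3, where 1.67% of all genes passed, and 1 over all days, where 3.27% did.

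Leaving out a mouse gave 0 to 4 genes at day 1, 0 to 133 at day 3 (0 to 2 of the 10), 1 to 127 at day 7 (0 to 3), and 227 to 692 over all days (0 to 4). For transcripts it was 0 to 0 at days 3 and 7 (0 to 0 of the 10 genes) and 134 to 525 over all days (2 to 6). Between days 3 and 1 it was 6 to 148 genes (0 to 2), between days 7 and 1 0 to 82, between days 7 and 3 0 to 1, and for usage 0 to 10.

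Log2 differences that reversed were not called. Actn3 at day 1 went from -0.001 to 0.002 (pseudocount 0.1), 0.010 (median of ratios), 0.103 (muscle markers), 0.011 (equal sums), and 0.050 (protein-coding transcripts alone), Actn3-202 to -0.002 (pseudocount 1), and Ldb3 at day 7 to 0.16 (muscle markers). Leaving out a mouse, the ranges at day 1 were -0.373 to 0.486 for Actn3, -0.257 to 0.239 for Myoz2, -0.117 to 0.421 for Myom3, -0.67 to 0.835 for Actn3-201, -0.284 to 0.408 for Actn3-202, -0.16 to 0.398 for Myom3-201, and -0.123 to 0.405 for Myom3-203. They were -0.511 to 0.094 for Myoz2 at day 3, -0.267 to 0.041 for Ldb3 at day 7, and -0.154 to 0.978 for the difference of Csrp3 between days 7 and 3.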
